A study of Canis lupus familiaris with 6 samples.

Results

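Lysosomal hydrolases, lysosomal membrane and proton pump proteins, autophagy factors and their transcription regulators were followed in CMM2 and CMM12, a pair of canine melanoma cell lines in which podoplanin, a mucin-like membrane glycoprotein, had been knocked out (KO). The members are a list of gene names, with no measured value in the rule, drawn up with earlier results of these data known. Of 46 named genes, 41 were listed under their symbol among 30951 rows (18011 with a symbol), and all 41 were among the 12270 genes with enough counts to be tested. CTSL, HEXA, MAN2B1, MCOLN1 and MAP1LC3B were not found under these symbols and were not analysed here. Each line was sequenced as 1 control, labelled WT, and as 2 podoplanin KO lines, numbered KO 1 and KO 2, so that 6 libraries were compared. No other allele or agent is named in the labels. The labels do not say how podoplanin was knocked out, whether a KO line is 1 clone, or whether libraries came from separate cultures. The p-values therefore reflect the scatter among these libraries alone, and that scatter could be technical.

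Lysosomes are acidic compartments in which hydrolases break down proteins, glycans and lipids delivered by endocytosis and by autophagy. A proton pump, the V-ATPase, acidifies them, and cathepsins are their main proteases, some of which are also secreted and cleave extracellular matrix. TFEB and TFE3, relatives of the melanocyte factor MITF, switch on lysosome and autophagy genes, and they are controlled mainly by phosphorylation and nuclear entry, which RNA levels do not show.

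The libraries held 9732927 to 11807835 expected counts. Podoplanin (PDPN), the targeted gene, was below its line's control in every KO library, at 5.59 and 5.58 CPM (counts scaled to a common library total) against 20.2 in CMM2, and at 15.2 and 9.98 against 87.8 in CMM12. Most markers of the melanocyte lineage were at or near the limit of detection. MLANA, TYR, DCT, SOX10 and S100B had at most 3 counts in every library. PMEL had 0.437 to 2.64 CPM, TYRP1 had 0 CPM in CMM2 and 3.71 to 6.07 in CMM12, and MITF had 15.4 to 28.4. The leukocyte gene PTPRC had 0 counts in all 6 libraries, and the 9 leukocyte and macrophage markers listed summed to 1.61 to 8.04 CPM. In CMM12 this sum was 1.64 CPM in the control and 4.38 and 5.97 after KO, and in CMM2 it was 5.44 against 8.04 and 1.61. CSF1R had 0.777 CPM in the CMM12 control against 3.37 and 4.89, and 0.0955 in the CMM2 control against 0.175 and 0.757. CD163 did not follow, with 2.67 CPM in the CMM2 control against 2.45 and 0.851. Summed over 5 fibroblast markers, the level was 66.2 CPM in the CMM2 control, 83.8 and 125 in its KO lines, 220.1 in the CMM12 control, and 259 and 521 in its KO lines. PDGFRA made up most of this sum in CMM2 (64.2, 81.7 and 119 CPM in the control, KO 1 and KO 2) and THY1 did so in CMM12 (166, 207 and 450.1 CPM), with 0 counts in CMM2. The other members did not all follow: in CMM12, LUM had 16.9 CPM in the control against 0.456 and 0, and DCN had 3.88 against 8.94 and 0. In CMM2, LUM had 0 CPM in the control against 0.0874 and 1.04. PDGFRB had 2.005 CPM in the CMM2 control against 2.010 and 4.92, and 3.11 in the CMM12 control against 5.93 and 10.5. Epithelial markers summed to 0 CPM in all CMM2 libraries and to 24.2 in control CMM12 cells against 4.65 and 5.29 after KO, with KRT14 at 17.7 against 0.091 and 0.979. Endothelial markers summed to 0 to 0.284 CPM in CMM2 and to 8.11 in the CMM12 control against 1.37 and 3.72. KDR made up most of the CMM12 control sum (8.03 CPM against 0.365 and 1.86), while PECAM1 had 0.086 CPM there against 0.091 and 1.66. In such bulk samples, fewer cells of a type and less RNA per cell cannot be told apart.

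On the TPM scale, which corrects for transcript length, CTSB was the most abundant of these transcripts. It encodes a cysteine cathepsin and stood at 320.5 TPM in control CMM2 cells and 382 and 899 after KO, and at 409 TPM in control CMM12 cells and 500.03 and 547 after KO. CMM2 KO 2 was highest, and the other libraries lay at 547 TPM or less. LAMP1, an abundant glycoprotein of the lysosomal membrane, followed with a mean of 294 TPM, then SQSTM1, the p62 cargo receptor of autophagy, with 233 TPM, and PSAP, the precursor of the saposins that assist lipid hydrolases, with 201 TPM. CTSD (an aspartic protease), PPT1 (which removes fatty acids from proteins) and BECN1 (a subunit of the autophagy lipid kinase) also averaged over 100 TPM, which makes 7 members. Another 31 averaged 10 to 100 TPM, and CLN3 (9.91), TFEB (6.27) and CTSS (1.07) averaged less. The steadiest member was PPT1, whose highest library was 1.21 times its lowest. The most uneven were ASAH1, with 0.24 to 84.2 TPM, CTSH, with 1.81 to 33.6 TPM, and CTSS, with 0.28 to 2.68 TPM.

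**Figure D1:**
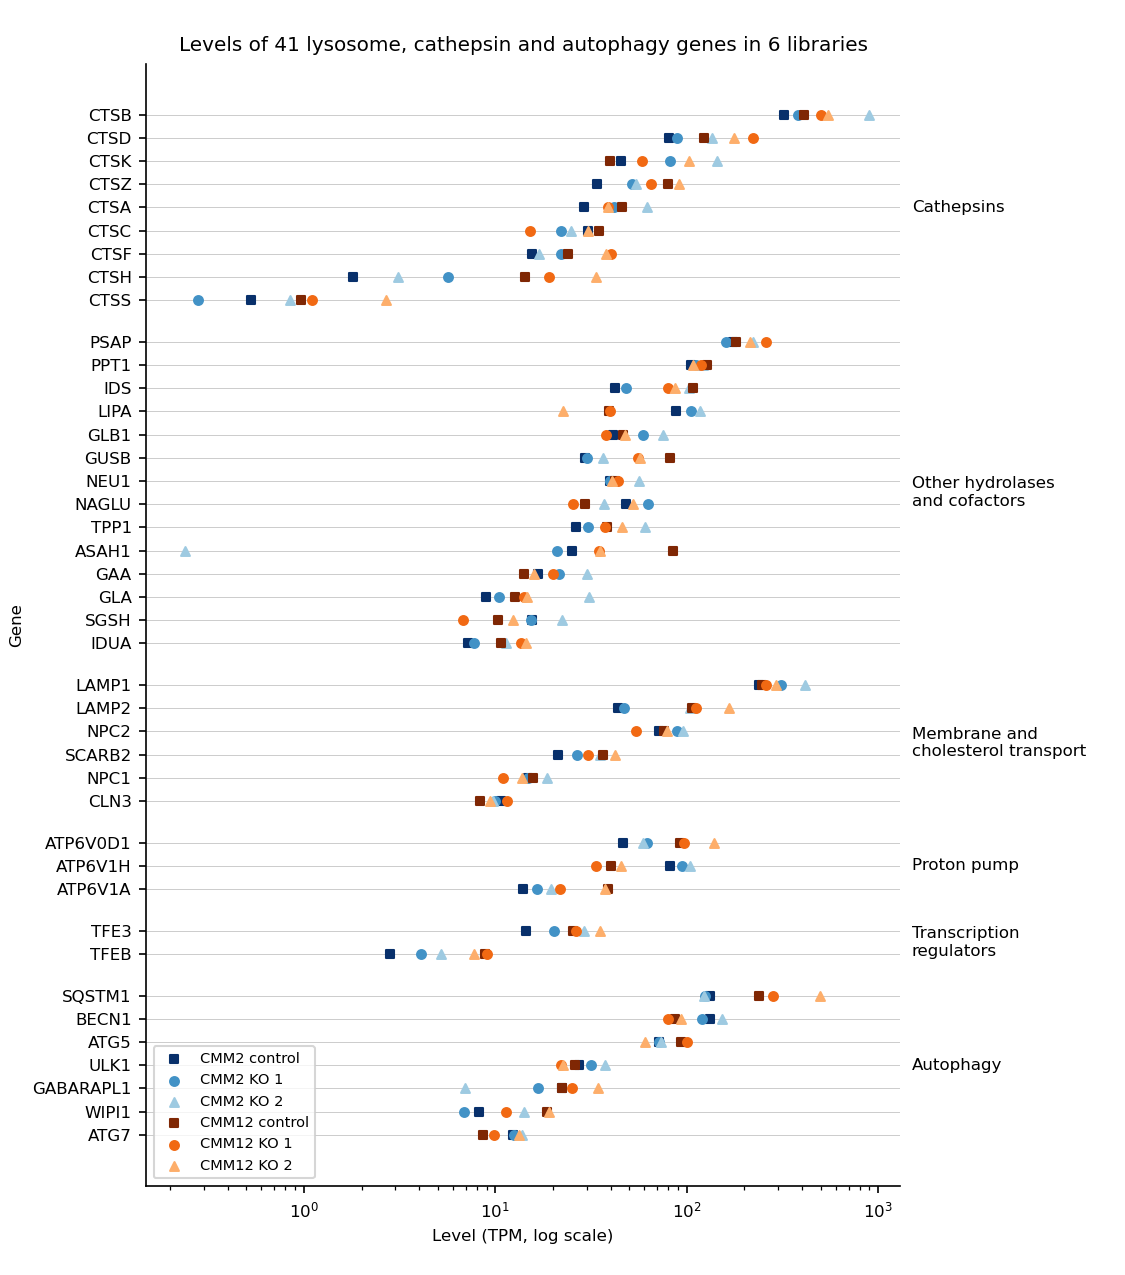
Level of each of 41 genes (TPM, log axis) in each of the 6 libraries, grouped by role and ordered by mean level; squares are controls, circles KO 1 and triangles KO 2, CMM2 in blue and CMM12 in orange. CTSB has the highest mean, and the CMM2 KO 2 point of ASAH1 lies far to the left of its others, at 0.24 TPM.

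Added up by role, the cathepsin transcripts had a higher sum in each KO library than in its control. The transcription regulators and the members as a whole did so too. The summed cathepsin level was 558 TPM in the CMM2 control, 696 in CMM2 KO 1 and 1339 in CMM2 KO 2, which is 1.25 and 2.40 times the control. In CMM12 it was 773 TPM in the control, 960.4 in KO 1 and 1060.2 in KO 2, or 1.24 and 1.37 times. Of the markers given above, PDGFRA, PDGFRB and CSF1R were likewise higher in each KO library than in its control, as was THY1 in CMM12. For PDGFRB the margin in CMM2 KO 1 was narrow. LUM and the epithelial and endothelial sums were lower in both CMM12 KO libraries, whereas LUM was higher in both CMM2 KO libraries. Their part in the cathepsin sum was not tested. CTSB carried much of this sum, and without it the ratios were 1.32 and 1.85 in CMM2 and 1.27 and 1.41 in CMM12. The other hydrolases and their cofactors had ratios of 1.08 and 1.38 in CMM2 and 0.953 and 0.928 in CMM12. Their CMM12 sums were 826, 787 and 767 TPM in the control, KO 1 and KO 2. ASAH1 alone had 84.2, 34.7 and 35.3 TPM in that order, and 8 of the 14 genes had a positive log2 fold change in CMM12. For the membrane and cholesterol transport proteins the ratios were 1.23 and 1.68 in CMM2 and 0.974 and 1.23 in CMM12. Autophagy genes had ratios of 0.942 and 1.03 in CMM2 and 1.07 and 1.5 in CMM12. Their median log2 fold change in CMM12 was 0.05. SQSTM1 alone had 238 TPM in the CMM12 control, 283 in KO 1 and 498 in KO 2, within autophagy sums of 494, 531 and 741 TPM. The transcription regulators had ratios of 1.41 and 1.97 in CMM2 and 1.04 and 1.26 in CMM12. Those of the proton pump subunits were 1.215 and 1.29 in CMM2 and 0.8895 and 1.29 in CMM12. For all members together they were 1.14 and 1.63 in CMM2 and 1.06 and 1.23 in CMM12. A higher sum in every KO library was therefore not particular to the cathepsins. The sums of all role groups carry no test, since each control is 1 library.

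**Figure D2:**
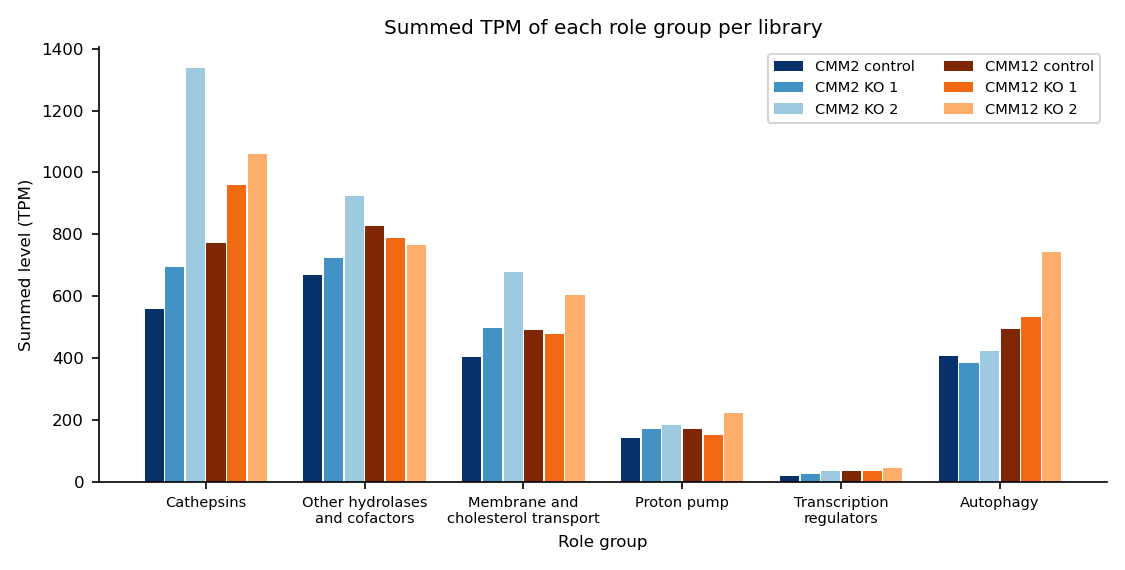
Summed level (TPM) of the listed members of each of 6 role groups, 1 bar per library, with no error bars because each bar is 1 library. The cathepsin bars of all 4 KO libraries exceed the control bar of their line, with CMM2 KO 2 at 1339 TPM. So do the bars of the transcription regulators. The KO bars of the other hydrolases in CMM12 lie below their control. Within them ASAH1 had 84.2 TPM in the control, 34.7 in KO 1 and 35.3 in KO 2.

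KO was compared with control over both lines at once, in a model with a term for the line, to ask which of these genes differ after podoplanin loss. Most stood somewhat higher in KO: 34 of the 41 had a positive log2 fold change, against 52.0% of all genes tested, and the median was 0.25 against 0.01 over all genes. None was called: edgeR's quasi-likelihood test called 0 of 41 members after Benjamini-Hochberg adjustment over all genes (0% of genes called in either direction). DESeq2 called 0 of 41 (0.0489% of genes called higher and 0.0244% lower). The same edgeR fit did not call PDPN, the targeted gene (−2.36, SE 0.28, edgeR adjusted p 0.288), whereas DESeq2 called it (adjusted p 4.2e-08). A count of 0 members therefore does not show that KO left them unchanged. At an unadjusted edgeR p under 0.05 there were 3 members, CTSD, CTSH and CTSK, all higher in KO, where 2.07% of all genes were higher at that level. Every KO library lay above the control of its line for 13 members (12.2% of all genes) and below it for CTSC and ASAH1 (10.6%). The 13 were CTSB, CTSD, CTSF, CTSH, CTSK, GAA, GLA, IDUA, TPP1, LAMP1, LAMP2, ATP6V0D1 and TFE3. They held 9 of the 23 hydrolases and 0 of the 7 autophagy genes. Of 31 further autophagy genes outside the members, 7 had every KO library above its control, so the 0 of 7 does not set autophagy genes apart. The KO effect of each line rests on 1 control. Leaving out the CMM2 control moved the median of the members to 0.06, which is that of CMM12 alone, and leaving out CMM2 KO 2 moved it to 0.16.

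Of 9 cathepsins, 8 had a positive log2 fold change in KO across lines, with a median of 0.52. CTSK, a collagen-cleaving cysteine protease best known from osteoclasts, stood at 48.8 CPM in the CMM2 control, 86.9 in KO 1 and 149 in KO 2. In CMM12 it stood at 37.5 CPM in the control, 59.5 in KO 1 and 96.4 in KO 2. Each KO library lay above both controls. KO exceeded control by 1.16 on the log2 scale (SE 0.29, edgeR p 0.0048, adjusted p 0.987), and DESeq2 gave an adjusted p of 0.116. With single libraries left out the change ranged from 0.96 to 1.31. PDGFRA, PDGFRB and CSF1R also stood above control in every KO library. LUM stood below it in both CMM12 KO libraries and above it in both CMM2 KO libraries. The part of such markers in the CTSK difference was not tested.

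CTSH, an aminopeptidase of the same family, was at a far lower level in CMM2, with 1.24 CPM in the control (13 counts), 3.84 in KO 1 and 2.08 in KO 2. In CMM12 the control had 8.63 CPM, KO 1 had 12.6 and KO 2 had 20.3. Every KO library exceeded its control, and every CMM12 library exceeded every CMM2 library. Its log2 fold change across lines was 1.06 (SE 0.40, edgeR p 0.030, adjusted p 0.987). CTSD had 100.1 CPM in the CMM2 control, 108 in KO 1 and 163 in KO 2, and 134 in the CMM12 control, 263 in KO 1 and 189 in KO 2. Its change was 0.60 (SE 0.24, edgeR p 0.038, adjusted p 0.987).

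CTSB stood at 287 CPM in the CMM2 control, 339 in KO 1 and 784 in KO 2, and at 323, 427 and 428 CPM in the CMM12 control, KO 1 and KO 2. CMM2 KO 2 stood far above the rest. The log2 fold change was 0.68 (SE 0.33, edgeR adjusted p 0.987), and 0.33 without that library. CTSF, another cysteine cathepsin, had 22.1, 30.8 and 23.3 CPM in the CMM2 control, KO 1 and KO 2, and 29.9, 54.3 and 46.5 CPM in the same order in CMM12. Its log2 fold change was 0.30 (SE 0.32) in CMM2 and 0.75 (SE 0.32, edgeR p 0.054) in CMM12. The difference between them was 0.46 (SE 0.44, edgeR p 0.34). CTSC, which activates serine proteases of immune cells, was the exception, with 30.9 CPM in the CMM2 control against 22.1 and 24.6, and 31.0 in the CMM12 control against 14.7 and 26.9. All 4 KO libraries were below their control, and the change was −0.49 (SE 0.27, edgeR adjusted p 0.987). CTSS, typical of antigen-presenting cells, was near the limit of detection, with 0.262 to 2.64 CPM.

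**Figure D3:**
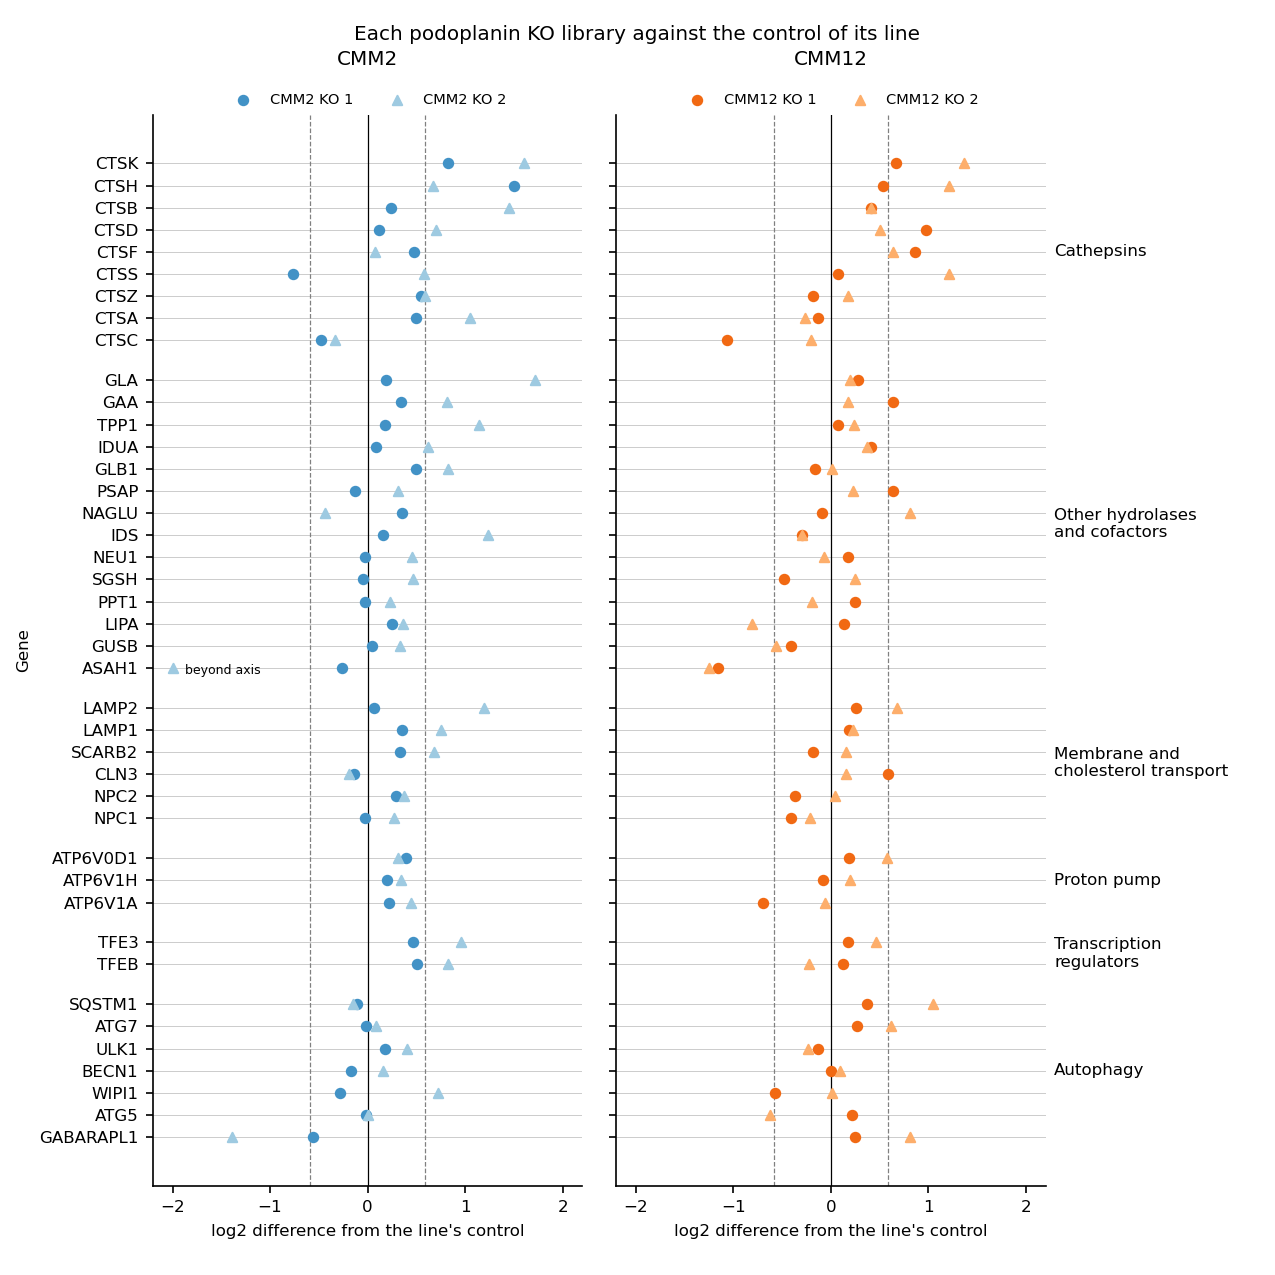
log2 difference of each KO library from the control of its line (scaled CPM with a prior count of 2) for 41 genes, grouped by role and ordered by the change across lines; circles are KO 1, triangles KO 2, and dashed lines mark a 1.5-fold difference. Points of CTSK lie right of zero in all 4 KO libraries, most CMM2 KO 2 points lie farther out than those of CMM2 KO 1, and the ASAH1 point of CMM2 KO 2 (log2 difference −5.98) is drawn at the axis edge.

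Among the other hydrolases and cofactors, 12 of 14 had a positive log2 fold change across lines, with a median of 0.21. GAA, the acid glucosidase that degrades glycogen, had 50.3, 64.0 and 88.6 CPM in the CMM2 control, KO 1 and KO 2, and 37.0, 57.5 and 41.7 CPM in CMM12. All KO libraries exceeded their control, and the change was 0.51 (SE 0.22, edgeR p 0.052, adjusted p 0.987). GLA, the alpha-galactosidase of glycolipid breakdown, had 11.0, 12.6 and 36.5 CPM in CMM2 and 13.6, 16.5 and 15.7 CPM in CMM12. Apart from CMM2 KO 2 its libraries lay between 11.0 and 16.5 CPM. IDUA, which degrades heparan and dermatan sulfate, had 12.4, 13.2 and 19.1 CPM in CMM2 and 17.0, 22.7 and 22.02 CPM in CMM12, with a change of 0.39 (SE 0.24, edgeR p 0.14). PSAP had 248, 226 and 308 CPM in CMM2 and 227, 351 and 265 CPM in CMM12, so both KO libraries were above control in CMM12 and on both sides of it in CMM2. TPP1, a tripeptidyl peptidase, had 37.5, 42.6 and 83.2 CPM in CMM2 and 47.9, 50.3 and 56.6 CPM in CMM12, again highest in CMM2 KO 2.

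ASAH1, the acid ceramidase that splits ceramide into sphingosine and a fatty acid, was nearly absent from 1 library. In CMM2 it had 244 counts in the control, 222 in KO 1 and 2 in KO 2 (23.3, 19.4 and 0.189 CPM). In CMM12 it had 70.2 CPM in the control, 31.4 in KO 1 and 29.4 in KO 2. The control of CMM2 exceeded CMM2 KO 2 by a ratio of 123 (95% counting interval 33.7 to 1023, exact, counting error only), and KO 1 exceeded KO 2 by 103 (28.1 to 852). The KO lines of CMM2 therefore differed from each other in ASAH1 by far more than those of CMM12. In the RefSeq gene table of the assembly UU_Cfam_GSD_1.0 the genes next to it are PCM1 and FRG1, chosen after these values were seen. PCM1, a centrosome protein gene, had 264 CPM in the CMM2 control, 274 in KO 1 and 201 in KO 2. FRG1 had 35.9, 34.9 and 30.0 CPM, so RNA of both was detected in CMM2 KO 2. Why ASAH1 was nearly absent there was not tested. Across lines the ASAH1 change was −1.23 (SE 0.91, edgeR p 0.22, adjusted p 0.987). Without CMM2 KO 2 it was −0.83 and without CMM2 KO 1 it was −2.79, and it was not called in either fit.

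**Figure D4:**
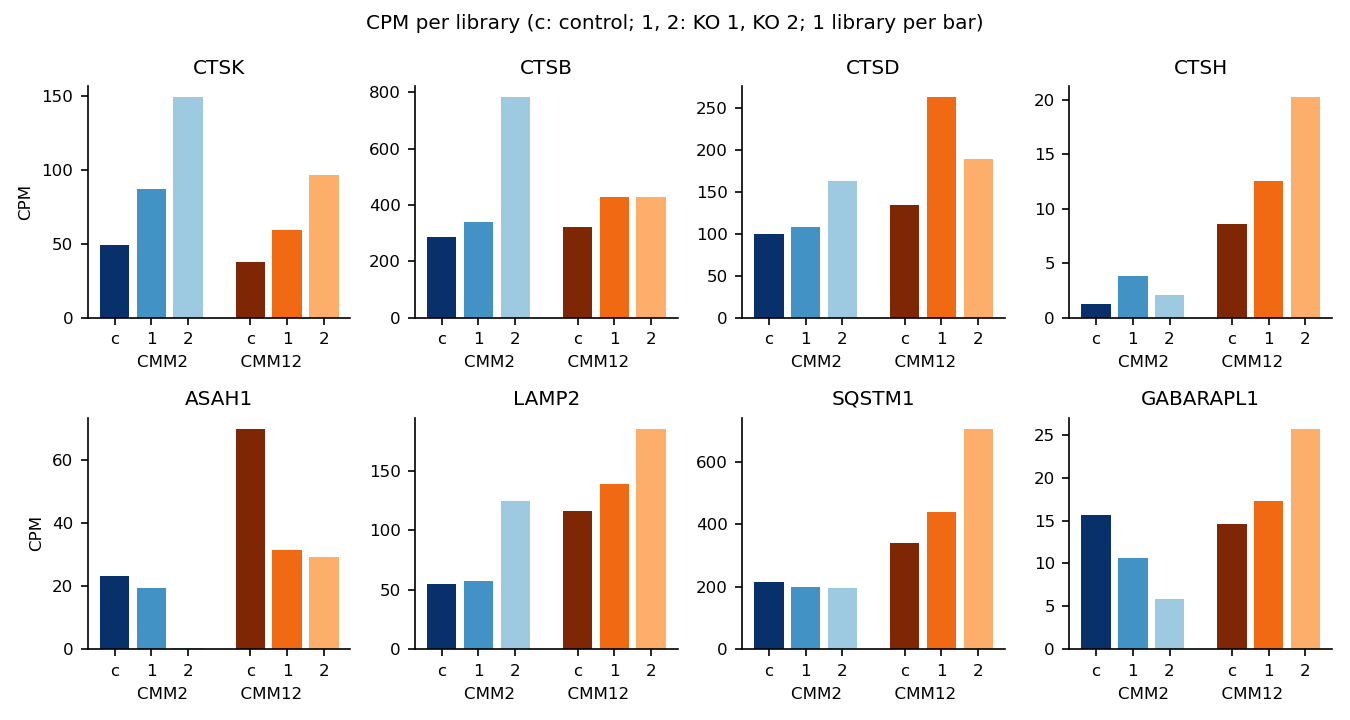
CPM of 8 members in each library, 1 bar per library and no error bars (c control, 1 and 2 the KO lines; CMM2 left, CMM12 right; each panel has its own axis from 0). CTSK and CTSH bars are higher in each KO library than in its control, ASAH1 is at 0.189 CPM in CMM2 KO 2, and SQSTM1 and GABARAPL1 are higher in CMM12 KO libraries and lower in CMM2 KO libraries than in their control.

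Membrane and cholesterol transport proteins had a median log2 fold change of 0.18 across lines, with 5 of 6 positive. LAMP1 stood at 315 CPM in the CMM2 control, 401 in KO 1 and 531 in KO 2, and at 286, 325 and 335 CPM in CMM12, with a change of 0.38 (SE 0.19, edgeR p 0.079). LAMP2, its partner, whose A form serves chaperone-mediated autophagy, had 54.7, 57.4 and 125 CPM in CMM2 and 116, 139 and 186 CPM in CMM12. Its change was 0.61 (SE 0.31, edgeR p 0.092), and 0.30 without CMM2 KO 2. SCARB2, the receptor that carries glucocerebrosidase to lysosomes, had 29.0, 36.5 and 46.8 CPM in CMM2 and 44.2, 38.8 and 49.0 CPM in CMM12, so its KO libraries were above control in CMM2 and on both sides of it in CMM12. NPC1 and NPC2 together export cholesterol from lysosomes. NPC1 had 58.3, 57.2 and 70.6 CPM in CMM2 and 54.3, 40.8 and 46.9 CPM in CMM12, and the log2 fold changes across lines were −0.09 (SE 0.19) for NPC1 and 0.09 (SE 0.21) for NPC2. CLN3, a membrane protein mutated in Batten disease, had 11.8 to 17.8 CPM over the 6 libraries.

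Of the proton pump subunits, ATP6V0D1, part of the membrane sector, had 40.4, 53.3 and 50.2 CPM in the CMM2 control, KO 1 and KO 2, and 70.9, 80.5 and 106 CPM in CMM12. Every KO library was above its control, and the change was 0.38 (SE 0.18, edgeR p 0.071). ATP6V1A, the catalytic subunit, had 22.7, 26.6 and 30.9 CPM in CMM2 and 55.3, 34.1 and 53.0 CPM in CMM12, so that both KO libraries were above control in CMM2 and below it in CMM12. The third, ATP6V1H, a regulatory subunit, had 132, 152 and 169 CPM in CMM2 and 56.3, 53.2 and 64.4 CPM in CMM12, a log2 fold change of 0.17 (SE 0.17). TFE3 had 28.5, 39.3 and 55.3 CPM in CMM2 and 43.7, 49.3 and 60.1 CPM in CMM12, so each KO library exceeded its control, with a change of 0.52 (SE 0.23, edgeR p 0.051, adjusted p 0.987). TFEB was at a lower level, 3.44, 4.98 and 6.24 CPM in CMM2 and 10.01, 10.9 and 8.51 CPM in CMM12, with a log2 fold change of 0.30 (SE 0.34) that was −0.04 without the CMM2 control.

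Autophagy genes had a median log2 fold change of 0.03, 5 of 7 positive and none with every KO library above its control. SQSTM1 had 216, 200.4 and 194 CPM in the CMM2 control, KO 1 and KO 2, and 342, 440.3 and 707 CPM in CMM12. GABARAPL1, a relative of LC3 that coats autophagosomes, had 15.7, 10.6 and 5.87 CPM in CMM2 and 14.6, 17.3 and 25.7 CPM in CMM12. Both were below control in the CMM2 KO lines and above it in those of CMM12. The difference between the KO effects of CMM12 and CMM2 was 0.88 (SE 0.46, edgeR p 0.10) for SQSTM1 and 1.49 (SE 0.67, edgeR p 0.063) for GABARAPL1, with an edgeR adjusted p of 1.00 for each. ATG7, the enzyme that activates LC3-type proteins, had 23.0, 22.8 and 24.5 CPM in CMM2 and 14.1, 17.0 and 21.6 CPM in CMM12. BECN1, ATG5, ULK1 and WIPI1 had log2 fold changes of 0.03, −0.08, 0.05 and 0.01, with SEs of 0.16 to 0.33.

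By line, the cathepsin CTSK had the smallest p in both CMM2 and CMM12. In CMM2, 35 of 41 had a positive log2 fold change (50.1% of all genes) and the median was 0.31, and in CMM12 it was 25 of 41 (52.1%) with a median of 0.06. edgeR called 0 members in either line (0% of genes called in CMM2, 0.00815% lower and 0% higher in CMM12). DESeq2 called 0 in either line (0.0244% of genes each way in CMM2, 0.171% higher and 0.196% lower in CMM12), giving CTSS no adjusted p in CMM12. PDPN itself was not called by edgeR in either line, and DESeq2 called it only in CMM12 (adjusted p 9.8e-06). At an unadjusted edgeR p under 0.05, CMM2 had CTSK (1.27, SE 0.44), CTSA (0.81, SE 0.31) and GLB1 (0.67, SE 0.26), all higher in KO, where 1.43% of all genes were higher and 0.473% lower, and CMM12 had 0 members, where 2.39% were higher and 3.60% lower. CTSA, which protects other hydrolases in a complex, had 45.9 CPM in the CMM2 control, 65.1 in KO 1 and 95.5 in KO 2, and 64.1, 58.6 and 53.2 CPM in CMM12. GLB1, the lysosomal beta-galactosidase of that complex, had 85.5, 121 and 151 CPM in CMM2, while CMM12 stood at 84.8, 75.8 and 85.2. The difference of the KO effects was −1.003 (SE 0.43, edgeR p 0.055) for CTSA and −0.74 (SE 0.36, edgeR p 0.082) for GLB1, and edgeR called 0 of 41 members for such a difference (0% of all genes), as did DESeq2 (0.0163% of genes higher, 0.163% lower), with 0 members at an unadjusted edgeR p under 0.05 (1.45% of all genes higher, 2.39% lower). In CMM12 the smallest p was that of CTSK (1.06, SE 0.44, edgeR p 0.051, adjusted p 0.827). The log2 fold change of KO, with its sign, was more positive or less negative in CMM12 than in CMM2 for 13 of 41 members, against 49.1% of all genes. GUSB, the beta-glucuronidase, had 126 CPM in the CMM12 control against 94.7 and 85.3 (−0.48, SE 0.25).

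CMM2 KO 2 had 17 members at least 1.5-fold above the control (17.0% of all genes) and 2 as far below (11.0%), namely ASAH1 and GABARAPL1. CMM2 KO 1 had 2 above (7.61%), CTSK and CTSH, and 1 below (5.34%), CTSS. In CMM12, KO 1 had 5 above (12.9%) and 3 below (14.1%), and KO 2 had 9 above (14.7%) and 3 below (13.0%). These counts compare single libraries, and no test between them was made. For 22 of the 41 members, CMM2 KO 2 was the KO library farthest from its control. The same share over all genes was not computed, so this count does not set the members apart. The medians of the members were 0.18 in CMM2 KO 1, 0.46 in CMM2 KO 2, 0.13 in CMM12 KO 1 and 0.18 in CMM12 KO 2, against 0.00 to 0.01 over all genes.

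The comparison of CMM12 with CMM2, with genotype as a term, asked how the lines differ. CMM12 had the higher level of CTSH and SQSTM1, while CMM2 had the higher level of LIPA and ATP6V1H. edgeR called 8 members higher in CMM12 (14.6% of all genes) and 5 lower (11.2%), so 13 of 41 differed against 25.8% of all genes, a share near that background. DESeq2 called 10 members higher and 5 lower, where it called 2170 and 1781 of the 12270 genes. The 10 included CTSD (DESeq2 adjusted p 0.027) and LAMP2, which edgeR did not call. The lines did not overlap for 18 members, 9 with every CMM12 library higher (24.6% of all genes) and 9 with every CMM2 library higher (21.5%). The median over the members was 0.06, close to 0.04 over all genes. The count depended on single libraries. The share of all genes called was not computed for the fits with a library left out. Whether the members moved more than other genes is therefore not known. Called higher were 2 members without the CMM2 control, 1 without CMM2 KO 1, 10 without CMM2 KO 2, 3 without the CMM12 control, 5 without CMM12 KO 1 and 3 without CMM12 KO 2. Called lower were 2 members without either control and 3 without any of the KO libraries.

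CTSH was higher in CMM12, at 8.63 to 20.3 CPM against 1.24 to 3.84, a log2 fold change of 2.56 (SE 0.37, edgeR adjusted p 0.0041). CTSF (0.74, SE 0.21, edgeR adjusted p 0.038) and CTSZ (0.63, SE 0.19, edgeR adjusted p 0.048) were also called higher. CTSZ, a carboxypeptidase, had 35.9 to 53.9 CPM in CMM2 and 63.4 to 81.4 in CMM12, whereas CTSF overlapped between lines. LIPA, the acid lipase that releases cholesterol from its esters, went the other way, with 147, 174 and 189 CPM in the CMM2 control, KO 1 and KO 2 against 57.5, 63.0 and 32.8 CPM in CMM12. The log2 difference was −1.73 (SE 0.27, edgeR adjusted p 0.0049). SGSH, a sulfatase of heparan sulfate breakdown, was lower in CMM12 as well (−0.98, SE 0.27, edgeR adjusted p 0.036, 9.94 to 16.6 against 23.2 to 33.2 CPM), and GUSB was higher (0.86, SE 0.20, edgeR adjusted p 0.018, 85.3 to 126 against 50.7 to 63.8 CPM). CTSF and SGSH lost their call without any 1 of the 6 libraries, with adjusted p-values of 0.062 to 0.108 and 0.058 to 0.091. CTSZ lost it without any 1 library except CMM12 KO 1 (0.055 to 0.212), and GUSB without either control (0.088 and 0.086), CMM2 KO 1 (0.074) or CMM12 KO 1 (0.0504).

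**Figure D5:**
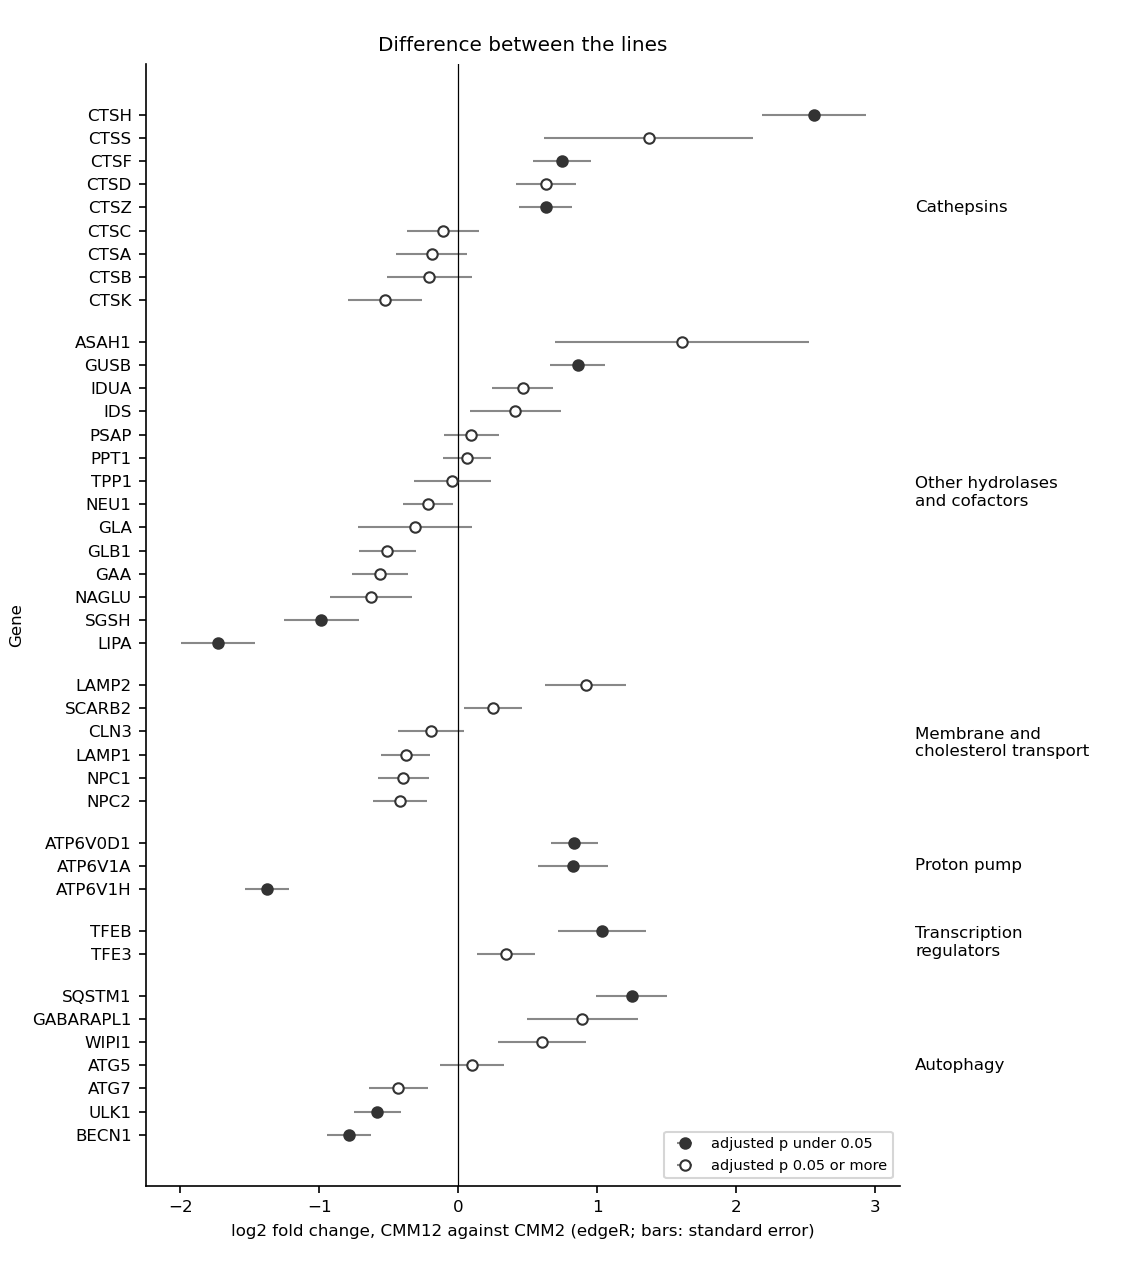
log2 fold change of CMM12 against CMM2 for 41 genes, grouped by role, from the edgeR fit over 6 libraries; bars are approximate standard errors and filled points have an adjusted p under 0.05. CTSH (2.56) lies farthest to the right and LIPA (−1.73) farthest to the left, and the proton pump subunits fall on both sides.

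The proton pump subunits did not differ in 1 direction. ATP6V1H had 132 to 169 CPM in CMM2 and 53.2 to 64.4 in CMM12 (−1.38, SE 0.16, edgeR adjusted p 0.0019), whereas ATP6V0D1 had 40.4 to 53.3 and 70.9 to 106 CPM (0.84, SE 0.17, edgeR adjusted p 0.012) and ATP6V1A 22.7 to 30.9 and 34.1 to 55.3 CPM (0.83, SE 0.25, edgeR adjusted p 0.047). TFEB was higher in CMM12 (1.04, SE 0.32, edgeR adjusted p 0.048), at 8.51 to 10.9 CPM against 3.44 to 6.24, while TFE3 was not called (0.34, SE 0.21). Among autophagy genes SQSTM1 was higher in CMM12 (1.25, SE 0.26, edgeR adjusted p 0.013), at 342 to 707 CPM against 194 to 216. BECN1 was lower there (−0.79, SE 0.16, edgeR adjusted p 0.012), at 97.0 to 104 CPM against 152 to 191, as was ULK1, a kinase that starts autophagy (−0.58, SE 0.17, edgeR adjusted p 0.044), at 54.9 to 64.7 against 77.3 to 103 CPM. None of the 6 membrane proteins was called by edgeR over the 6 libraries. LAMP2 came closest (0.92, SE 0.29, edgeR adjusted p 0.054), and DESeq2 called it (adjusted p 0.013). It was called in 6 of the 16 alternative analyses of this comparison. ATP6V0D1 lost its call without the CMM2 control, CMM2 KO 1 or CMM12 KO 2 (adjusted p 0.0523, 0.0513 and 0.0501). ATP6V1A lost it without either control (0.201 and 0.202), CMM2 KO 1 (0.132) or CMM12 KO 2 (0.171), and TFEB without any 1 library except CMM2 KO 2 (0.070 to 0.204). ULK1 lost it without any 1 library (0.054 to 0.149), BECN1 without either control (0.0555 and 0.0560), and SQSTM1 without CMM2 KO 1 (0.070). CTSH, LIPA and ATP6V1H were called in all 16 alternative analyses of this comparison.

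A wider list of 140 further genes of the pathway, 129 of them listed and 120 tested, put these members in context. In KO across lines, 79 of the 120 had a positive log2 fold change (52.0% of all genes), with a median of 0.09 (0.01 over all genes). edgeR called 0 of them (0% of all genes), as did DESeq2 (0.0489% of all genes higher, 0.0244% lower). At an unadjusted edgeR p under 0.05, 5 were higher and 2 lower (2.07% and 1.96% of all genes). SIDT2, a nucleic acid transporter of the lysosomal membrane, had 7.16, 13.2 and 23.7 CPM in the CMM2 control, KO 1 and KO 2 and 34.6, 69.3 and 56.9 CPM in CMM12, a change of 1.09 (edgeR p 0.0069). ABCB9, a lysosomal peptide transporter, had 5.16, 12.8 and 12.2 CPM in CMM2 and 4.23, 6.29 and 5.97 CPM in CMM12 (0.90, edgeR p 0.025). ATG12, the conjugation partner of ATG5, had 12.8, 16.7 and 18.6 CPM in CMM2 and 41.3, 63.4 and 64.1 CPM in CMM12 (0.55, edgeR p 0.020). In all 3 genes every KO library exceeded its control. GM2A, the activator protein for ganglioside breakdown, had 5.06 CPM in the CMM2 control against 1.66 and 0.662, and 8.63 in the CMM12 control against 17.7 and 14.4, a difference of the KO effects of 2.998 (edgeR p 0.0099, adjusted p 1.00). SORT1 and NAGPA, which serve hydrolase sorting, followed, with differences of −0.99 (edgeR p 0.059) and −0.93 (edgeR p 0.063). SORT1 had 25.5, 30.4 and 37.9 CPM in CMM2 and 67.7, 51.5 and 40.1 CPM in CMM12, and NAGPA had 17.8, 29.9 and 32.3 CPM in CMM2 and 23.7, 21.6 and 22.02 CPM in CMM12. By list, the medians across lines were 0.195 for further hydrolases, 0.12 for membrane proteins, 0.02 for sorting factors, 0.08 for proton pump subunits, 0.09 for autophagy genes and 0.12 for mTORC1 and MiT/TFE regulators.

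Within single lines, 81 of these 120 genes had a positive log2 fold change in CMM2 (50.1% of all genes). In CMM12 it was 67 (52.1% of all genes), a share near that background. edgeR called 0 of the 120 in each line (0% of all genes in CMM2, 0.00815% in CMM12). In CMM12, the mannose 6-phosphate receptor gene IGF2R, which sorts hydrolases to lysosomes, had 260.0 CPM in the control against 152 and 160 (−0.74, edgeR p 0.017, adjusted p 0.772), while ATG13, a partner of ULK1, had 33.0 against 56.5 and 56.0 (0.77, edgeR p 0.039). RPTOR, the scaffold of mTORC1, the kinase that restrains TFEB and autophagy, had 89.7 CPM in the CMM12 control against 64.6 and 49.6, and 173 in the CMM2 control against 149 and 140.4. MITF had 28.4 CPM in the CMM12 control against 15.4 and 20.1, and 21.2 in the CMM2 control against 24.1 and 27.9. TFEC, the last of that family, had 0 counts in all 6 libraries. Between the lines edgeR called 13 of the 120 higher in CMM12 (14.6% of all genes) and 19 lower (11.2%). ATG12 (1.80), SIDT2 (1.93) and ATP6V1B2, a pump subunit (−1.45), had the smallest p, with edgeR adjusted p-values of 0.0011, 0.0037 and 0.0033.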

How the data were processed

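Total RNA from 6 samples labelled by line and genotype was sequenced, with libraries built with a NEBNext Ultra kit per the labels' protocols. The authors deposited expected counts per gene and, separately, TPM values, per the file headers. The submitters' processing notes list STAR 2.7.3a, RSEM 1.3.3 and CanFam3.1, without saying which step each served. Neither labels nor headers give a strand setting, and reads from a gene and an antisense partner cannot be told apart.

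Expected counts were rounded to whole numbers (3.22 to 3.63% of values changed). Library totals were 9732927 to 11807835, and 3 counts in a library correspond to 0.259 to 0.294 CPM. Rows without a symbol held 7.89 to 8.85% of counts and were kept in the fits. edgeR 4.0.16 (R 4.3.3) was run with TMM factors, its own low-count filter over the 4 groups and quasi-likelihood tests, adjusted by Benjamini-Hochberg over 12270 genes at 0.05. Line and KO across lines came from an additive model (3 residual degrees of freedom), and KO within each line and its difference between lines (CMM12 minus CMM2) from a model of 4 group means (2). SE is an approximate standard error, the absolute log2 fold change divided by the square root of edgeR's F statistic. CPM values are counts scaled by TMM to a common total, and single-library differences used a prior count of 2 and a 1.5-fold limit. Levels of different genes were compared as TPM. The fits were also run on simulated counts with the same spread for every gene. Real genes differ in spread, so that run does not show how the fits perform here. DESeq2 1.42.0, limma 3.58.1 on log2(TPM + 1), other filters and scalings, and leaving out each library were alternatives. No 2 libraries of a group agreed within sampling noise.

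The members and lists were chosen with earlier results of these data known. Genes named with values were TFEB, TFE3 and, per role, those called and not overlapping between lines, those with the smallest p per comparison and the one with the highest TPM; for other pathway genes, the 3 smallest p per comparison. ASAH1 and its neighbours, CTSD, CTSC, CTSS, TPP1, PPT1, NPC2, ATG5, WIPI1, RPTOR in CMM2, MITF and TFEC were added after their values were seen. No promoter or protein sequence was analysed here.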

Additional observations from a re-analysis of the deposited data

How the results depend on the processing

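In the KO comparisons, 0 members were called under every alternative run. Between the lines, 8 members were called higher in CMM12 and 5 lower. For the alternatives that follow, the share of all genes called was not computed, so the counts of members have no background beside them. With limma on log2(TPM + 1) or log2(TPM + 0.1), 3 were lower, and without a TPM filter 5 were higher and 3 lower. Leaving out single libraries gave 1 to 10 higher and 2 to 3 lower, from fewer samples. Deviations of same-numbered KO libraries from their group means correlated at 0.06 between the lines over 12270 genes. A low value in unlike lines cannot show whether libraries with the same number shared a preparation, which the labels do not say. With the KO number as a replicate block among KO libraries alone, 2 were higher and 2 lower, and with controls as their own level the replicate block gave 7 and 4. The median of the members in KO across lines was 0.25 and ranged from 0.0626 to 0.3156 with single libraries left out, and that in CMM12 was 0.06, with 0.0027 under the 3 limma settings and 0.0624 to 0.1792 with single libraries left out. Of 80 results for named genes, with 1131 values under alternatives, 3 values changed sign: TFEB across lines (−0.041 without the CMM2 control, up to 0.7044 without other libraries), TFEB in CMM12 (0.1285 without CMM12 KO 2, down to −0.2321) and SQSTM1 across lines (−0.1309 without the CMM12 control, up to 0.7475). The cause was not tested. Another 73 values lost a call and 10 gained one. With a 2-fold limit, 1 member was higher and 0 lower in CMM2 KO 1, 7 were higher and 2 lower in CMM2 KO 2, 0 higher and 2 lower in CMM12 KO 1, and 4 higher and 1 lower in CMM12 KO 2. Each line has 1 control, which limits every KO estimate. The planned description of promoter motifs was not run.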
